A study of Homo sapiens with 12 samples.

Results

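Transforming growth factor beta (TGF-beta), the activins and the bone morphogenetic proteins (BMPs) form one family of secreted signals, and 41 of its ligands, receptors, antagonists, SMAD proteins, SMAD regulators and response genes were followed here. They were taken by name from a list that was chosen with earlier results of these data known. A gene was read from the brightest of the probe sets that named it alone. Of the 41 genes, 40 were measured, among 11963 genes in all. BMPR1A, a type I receptor for BMPs, had no probe set among those used. The label names the cells as MDA-MB-231, a long-established line from a human breast cancer without hormone receptors or HER2 amplification, and the study altered LSD2 in them. LSD2, the product of KDM1B, removes methyl groups from lysine 4 of histone H3. A scramble shRNA (the control) and an shRNA against LSD2 made up the first pair of groups, and an eGFP/Flag vector (the control) and an LSD2/eGFP/Flag vector made up the second, each with 3 arrays labelled as biological replicates. All 4 groups were transfected, and all were grown with G418 at 800 ug/ml, which removes cells that did not take up the vector. Whether each was a clone or a pool, and whether the 3 replicates were separate lines or cultures of 1 line, is not given in the sources used here, so the p-values measure only the spread between these arrays, and effects of LSD2 and of the derivation of each line cannot be told apart.

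In this pathway a ligand pairs a type II with a type I receptor, and the type I receptor phosphorylates receptor SMADs. As background, TGF-beta and activin act mainly through SMAD2 and SMAD3, BMPs act mainly through SMAD1 and SMAD5, and both sets enter the nucleus with SMAD4. SMAD6 and SMAD7 inhibit the route and are themselves induced by it, and the ID genes are well-known BMP response genes. TGF-beta is known to restrain growth of normal epithelium and to favour migration and matrix production in breast cancer cells, for which MDA-MB-231 is a common model.

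The arrays gave log2 signals, on which 1 unit is a 2-fold change. The 6 shRNA arrays had medians of 6.65 to 6.71 and the 6 vector arrays 7.03 to 7.18, and the sets appear to have been normalized separately, so no gene was compared between them. The targeted gene was not checked, since 0 of the probe sets used named KDM1B. The word knockdown below names the LSD2 shRNA arrays by their label alone. Arrays of 1 group correlated over genes at 0.996 to 0.998, scramble with LSD2 shRNA arrays at 0.991 to 0.994, and eGFP/Flag with LSD2/eGFP/Flag arrays at only 0.904 to 0.908. Of 10 markers of MDA-MB-231 cells (VIM, CD44, AXL, CAV1, EGFR, MSN, ITGB1, S100A4, ANXA1 and KRT18), 9 were lower on the LSD2/eGFP/Flag arrays (limma, adjusted p under 0.05). Their mean log2 signal was 12.29 to 12.31 on the eGFP/Flag arrays and 7.96 to 8.13 on the LSD2/eGFP/Flag arrays, against 11.51 to 11.60 on the scramble and 11.53 to 11.60 on the LSD2 shRNA arrays. CD44 went from 12.41 to 3.99 and ANXA1 from 13.25 to 4.65 between the vector groups. Of 6 neural markers 3 were higher and 2 lower there, and their mean went from 5.89 to 6.01 up to 8.40 to 8.57. VIM, at 12.73, was still bright on the LSD2/eGFP/Flag arrays, and S100A4 was not called. Every result of the vector comparison is therefore given for arrays on which several defining markers of the labelled line were near the lowest signals, and the part of this in each result was not tested. Means of the fibroblast list (5.52 to 5.69 and 5.87 to 6.32), the endothelial list (5.13 to 5.24 and 5.14 to 5.20), the blood cell list (5.57 to 5.73 and 5.59 to 5.63) and the luminal list (7.01 to 7.14 and 6.67 to 6.77) are given for the eGFP/Flag and LSD2/eGFP/Flag arrays in this order. Of these lists 3 of 7, 3 of 6, 0 of 6 (0 also at an unadjusted p under 0.05, limma) and 6 of 10 measured markers were called. Over all genes 57.0% were called between the vector groups, 30.9% higher and 26.1% lower. In such bulk RNA, fewer cells of a kind and less RNA per cell cannot be told apart.

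The promoters of 4 genes are shown because the results turn on them. FST had the largest rise with the LSD2 shRNA and INHBB the largest fall, SMAD6 is an inhibitory SMAD that went opposite ways in the 2 comparisons, and TGFBI had the largest fall with the LSD2 vector. Each is the 250 bases before the RefSeq start, on build GRCh38.p14 and 5′ to 3′ on the gene's strand, which is plus for all 4: FST chr5:53480379-53480628, INHBB chr2:120345886-120346135, SMAD6 chr15:66701986-66702235 and TGFBI chr5:136028738-136028987. Capitals mark matches to 3 SMAD motifs searched on both strands, the palindrome GTCTAGAC, the box CAGACA and the GC-rich site GGCGCC, none of which overlaps another in these windows.
FST: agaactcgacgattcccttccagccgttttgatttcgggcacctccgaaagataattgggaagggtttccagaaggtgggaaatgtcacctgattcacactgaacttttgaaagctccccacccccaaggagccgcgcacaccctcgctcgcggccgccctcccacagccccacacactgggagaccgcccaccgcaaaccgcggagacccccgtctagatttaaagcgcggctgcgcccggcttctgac
INHBB: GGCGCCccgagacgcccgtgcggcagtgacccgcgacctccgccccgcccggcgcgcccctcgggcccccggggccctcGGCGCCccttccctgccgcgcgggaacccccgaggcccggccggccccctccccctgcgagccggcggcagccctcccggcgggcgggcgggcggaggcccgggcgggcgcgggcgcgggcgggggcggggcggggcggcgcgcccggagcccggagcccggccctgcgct
SMAD6: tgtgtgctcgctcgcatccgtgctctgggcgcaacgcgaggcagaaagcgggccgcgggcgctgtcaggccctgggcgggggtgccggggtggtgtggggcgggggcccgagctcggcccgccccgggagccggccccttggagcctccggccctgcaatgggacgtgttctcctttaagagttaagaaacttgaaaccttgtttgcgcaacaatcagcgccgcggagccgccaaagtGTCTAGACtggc
TGFBI: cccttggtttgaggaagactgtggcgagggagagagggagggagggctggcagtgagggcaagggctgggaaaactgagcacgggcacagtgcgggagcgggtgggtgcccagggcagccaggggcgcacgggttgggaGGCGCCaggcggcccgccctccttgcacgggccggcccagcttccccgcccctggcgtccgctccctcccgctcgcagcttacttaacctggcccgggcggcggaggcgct
SMAD6 holds GTCTAGAC, beginning 12 bases before its start, INHBB holds GGCGCC at 250 and 171 bases before its start, TGFBI holds it at 111 bases, and FST holds none of the 3. RefSeq windows were found for 37 of the 40 measured genes (75 windows, since some genes have several starts), and BMP2, BMP7 and SKI had none in the table. GTCTAGAC was in 1 of the 75 windows, that of SMAD6, in 0.182% of all 35116 windows and in 0.149% of the 14058 windows of measured genes. CAGACA was in 15 of the 75 (20%), in 13.6% of all windows and in 11.5% of those of measured genes. GGCGCC was in 19 (25.3%), in 16.4% of all windows and in 21.9% of those of measured genes. The matches describe letters in these windows and were not tied to SMAD binding.

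With the LSD2 shRNA, 6 of the 40 measured genes rose and 9 fell, while 25 were not called (limma, Benjamini-Hochberg adjusted p under 0.05 over all genes). Follistatin FST rose most and the activin subunit INHBB fell most. Over all genes tested, 5.00% were called higher and 5.53% lower, 10.5% in all, against 37.5% of the listed genes. The part of the choice of list in this share, and in that of the vector comparison, was not tested. The 3 arrays of each group did not overlap for 7 listed genes that were higher and 13 that were lower, where 13.5% and 14.9% of all genes were so placed. The median size of the difference was 0.24 log2 units over the listed genes and 0.10 over all genes, and the median difference was -0.06 and -0.01. Fitted on the 6 shRNA arrays alone, without the vector arrays that stood apart, the counts were 5 higher and 10 lower. The plot of differences by role shows that the called genes were spread over every role.

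**Figure D1:**
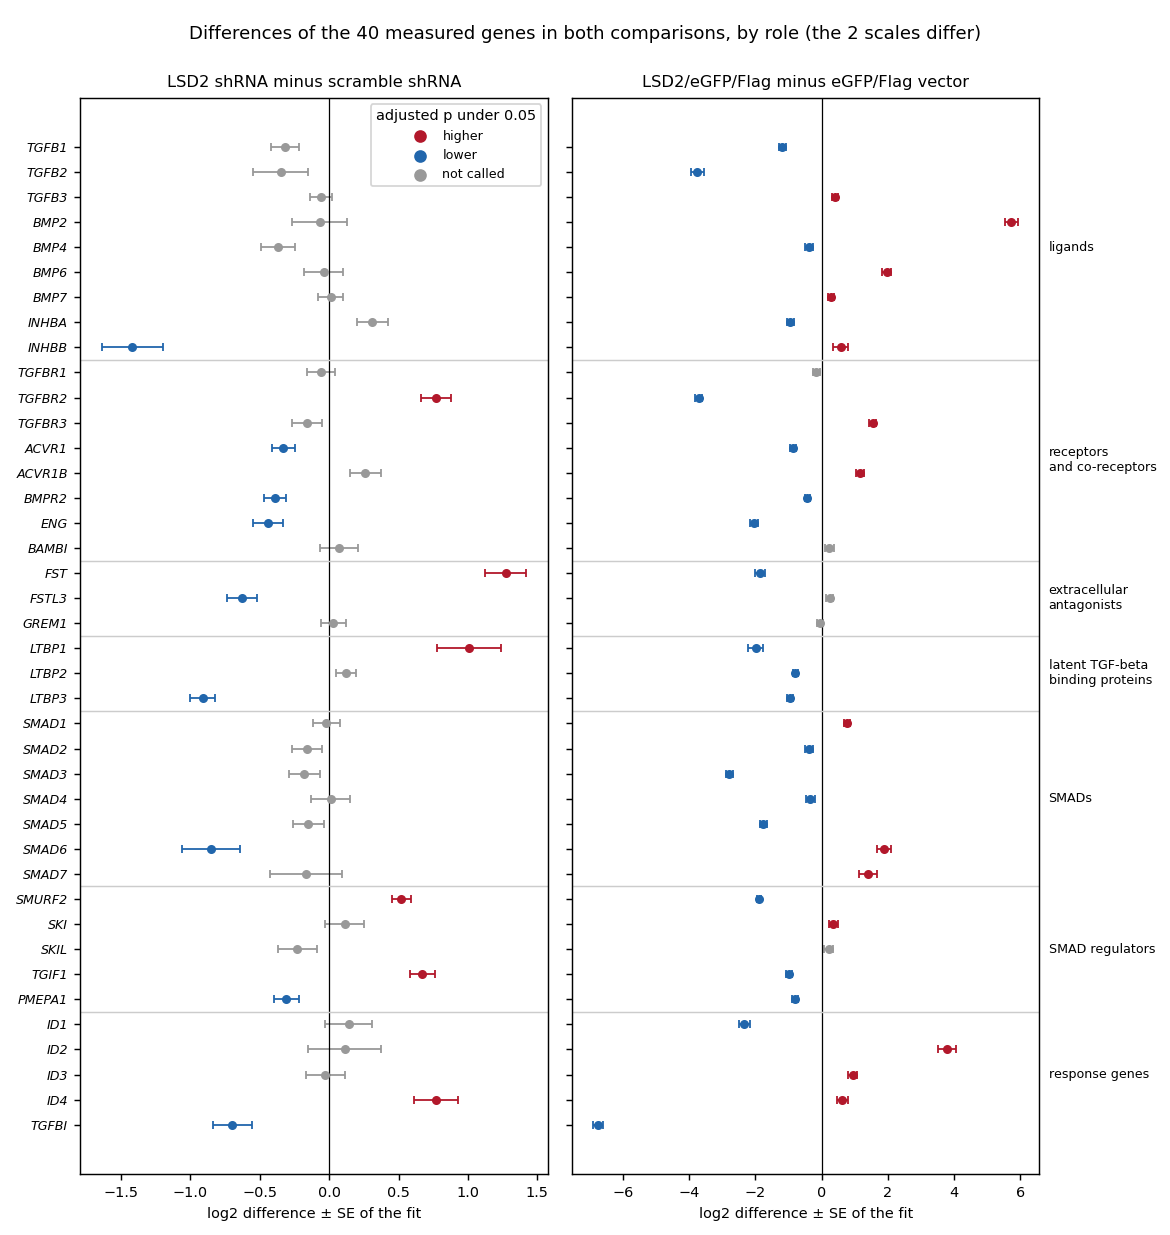
Log2 differences (points) with the standard error of the limma fit (bars) for the 40 measured genes, grouped by role, for LSD2 shRNA minus scramble (left) and LSD2/eGFP/Flag minus eGFP/Flag (right), with horizontal scales that differ. Red and blue mark genes called higher and lower, 6 and 9 on the left and 14 and 21 on the right, and FST (1.27, left) and BMP2 (5.73, right) lie farthest to the right.

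Among the ligands, 1 of 9 changed. INHBB, which encodes the beta B subunit of activin and inhibin, read 9.79, 10.15 and 9.55 on the 3 scramble arrays and 8.15, 8.75 and 8.33 on the LSD2 shRNA arrays. Every knockdown array lay below every control array, and INHBB fell by 1.42 (SE 0.22), a 2.67-fold difference (limma adjusted p = 0.0013). The other activin subunit gene, INHBA, was at 0.31 ± 0.11 (SE) and was not called (limma adjusted p = 0.106). TGFB1, the main TGF-beta ligand gene, read 7.50, 7.49 and 7.37 against 7.02, 7.23 and 7.15. Its arrays did not overlap between the groups, and its difference of -0.32 ± 0.10 missed the threshold (limma adjusted p = 0.0597), though it passed in 6 of 22 alternative settings (0.00672 to 0.22 over all of them). BMP4 lay nearby at -0.37 ± 0.12 (limma adjusted p = 0.0636, and 0.0389 to 0.244 over its alternatives, 3 of which called it). TGFB2 was at -0.35 ± 0.20 by its brightest probe set (limma adjusted p = 0.342), and 2 of its 3 other probe sets were called lower, at -0.54 and -0.76. TGFB3, BMP2, BMP6 and BMP7 lay between -0.07 and 0.01.

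Receptor genes moved in both directions. TGFBR2 encodes the type II receptor that binds TGF-beta, and its brightest probe set read 9.40, 9.73 and 9.25 with the scramble shRNA and 10.17, 10.37 and 10.15 with the LSD2 shRNA. All knockdown values were above all control values, and TGFBR2 rose by 0.77 ± 0.11, or 1.71-fold (limma adjusted p = 0.000928). A second, dimmer probe set of TGFBR2 was at 0.09 ± 0.12 and was not called. The falls were small. The BMP type II receptor BMPR2 fell by 0.39, from 6.82, 6.50 and 6.69 to 6.26, 6.24 and 6.34, and its other probe set fell by 0.47. Endoglin ENG, a co-receptor best known from endothelium, fell by 0.44, and the type I receptor ACVR1 fell by 0.33, both without overlap of their arrays, while a second probe set of ENG was at -0.18 ± 0.10 and was not called. The limma adjusted p of BMPR2, ACVR1 and ENG was 0.00955, 0.0139 and 0.0216. TGFBR1 (-0.06 ± 0.10), TGFBR3 (-0.16 ± 0.11), ACVR1B (0.26 ± 0.11) and the decoy receptor BAMBI (0.07 ± 0.14) were not called. The BMPR2 call was lost without scramble replicate 1 (limma adjusted p = 0.0506). That of ACVR1 was lost without LSD2 shRNA replicate 3 (0.0544) and without scramble replicate 1 (0.0576) or 2 (0.0623). For ENG it was lost without knockdown replicate 1 (0.0738) or 2 (0.0681), and also without control replicate 1 (0.075) or 2 (0.0715), all by limma.

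Both activin-binding antagonists changed, in opposite directions. Follistatin FST, a secreted protein that binds activin and blocks it, read 8.92, 9.31 and 8.90 on the scramble arrays and 10.16, 10.56 and 10.21 on the knockdown arrays. The groups were far apart for their spread, and FST rose by 1.27 ± 0.15, or 2.41-fold (limma adjusted p = 0.000169). Its second probe set rose by 1.48 ± 0.18. The related FSTL3 read 6.78, 6.68 and 6.74 against 5.86, 6.07 and 6.38. Its knockdown arrays were all lower but spread over 0.26 (SD), and FSTL3 fell by 0.63 (limma adjusted p = 0.00289). The BMP antagonist GREM1 stayed near the lowest signals, at 2.72 to 2.81 and 2.65 to 2.97, among the dimmest genes.

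The latent TGF-beta binding proteins, some of which hold secreted TGF-beta in the matrix until it is released, also split. LTBP3 read 7.49, 7.52 and 7.20 on scramble arrays and 6.46, 6.59 and 6.41 on knockdown arrays. It fell by 0.91 (SE 0.09), the smallest adjusted p of the listed genes in this comparison (limma, 6.67e-05). LTBP1 read 7.94, 8.25 and 7.31 against 8.78, 9.30 and 8.45, with a wide spread within each group and no overlap. LTBP1 rose by 1.01 ± 0.23 (limma adjusted p = 0.012), but the call was lost in the fit on the 6 shRNA arrays alone (0.0605), and its second probe set was at 0.49 ± 0.16 and was not called. LTBP2 was at 0.12 ± 0.07.

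The SMAD genes that carry the signal were not called. SMAD1, SMAD2, SMAD3, SMAD4 and SMAD5 lay between -0.18 and 0.01 by their brightest probe sets, although 1 other probe set each of SMAD2 (-0.37 ± 0.09) and SMAD3 (-0.41 ± 0.11) was called lower. The inhibitory SMAD6 read 7.19, 7.58 and 6.93 on the scramble arrays and 6.55, 6.55 and 6.05 on the knockdown arrays. It fell by 0.85 (SE 0.21, limma adjusted p = 0.0188), but 3 dimmer probe sets were at -0.16, 0.02 and 0.20 and were not called. The SMAD6 call was lost with the mean of all its probe sets (-0.20 ± 0.10, limma adjusted p = 0.236) and when LSD2 shRNA replicate 3 (0.0813), scramble replicate 1 (0.0553) or scramble replicate 2 (0.0828) was left out. SMAD7, the other inhibitory SMAD, was at -0.17 ± 0.26.

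Regulators of SMAD activity gave 2 rises and 1 fall among 5 genes. The ubiquitin ligase SMURF2, which marks receptors and SMADs for degradation, read 10.48, 10.28 and 10.44 on the scramble arrays and 10.96, 10.89 and 10.90 on the knockdown arrays. These values were tight, and SMURF2 rose by 0.52 ± 0.07 (limma adjusted p = 0.000667). The corepressor TGIF1 read 7.13, 7.15 and 7.12 against 7.90, 7.70 and 7.81. Its control values hardly varied, and TGIF1 rose by 0.67 ± 0.09, or 1.59-fold (limma adjusted p = 0.000405). PMEPA1, a TGF-beta-induced inhibitor of SMAD2 and SMAD3, fell by 0.31 with no overlap (limma adjusted p = 0.0398), and lost its call in 9 of 22 settings, 5 of them without 1 array. The limma adjusted p was 0.113, 0.0883 and 0.093 without LSD2 shRNA replicate 1, 2 or 3, and 0.108 and 0.157 without scramble replicate 1 or 2. The corepressors SKI (0.11 ± 0.14) and SKIL (-0.23 ± 0.14) were not called. The number of listed genes called lower, 9 with all arrays, was 4 without scramble replicate 1 and 5 without scramble replicate 2, while the 6 rises stayed 6 in number without any 1 array.

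The last role is that of response genes. TGFBI, a matrix protein named for its induction by TGF-beta, read 11.32, 11.44 and 11.19 on scramble arrays and 10.65, 10.54 and 10.65 on knockdown arrays. The groups did not overlap, and TGFBI fell by 0.70 (SE 0.14, limma adjusted p = 0.00609). ID1, ID2 and ID3, inhibitors of helix-loop-helix factors, were at 0.14 ± 0.17, 0.11 ± 0.26 and -0.03 ± 0.14. Their relative ID4 read 7.27, 7.21 and 6.99 against 8.08, 7.79 and 7.91 by its brightest probe set. ID4 rose by 0.77 ± 0.16 (limma adjusted p = 0.00838), while its other 2 probe sets, at 0.17 and 0.23, were not called and the mean of all 3 gave 0.39 ± 0.14 (limma adjusted p = 0.106).

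**Figure D2:**
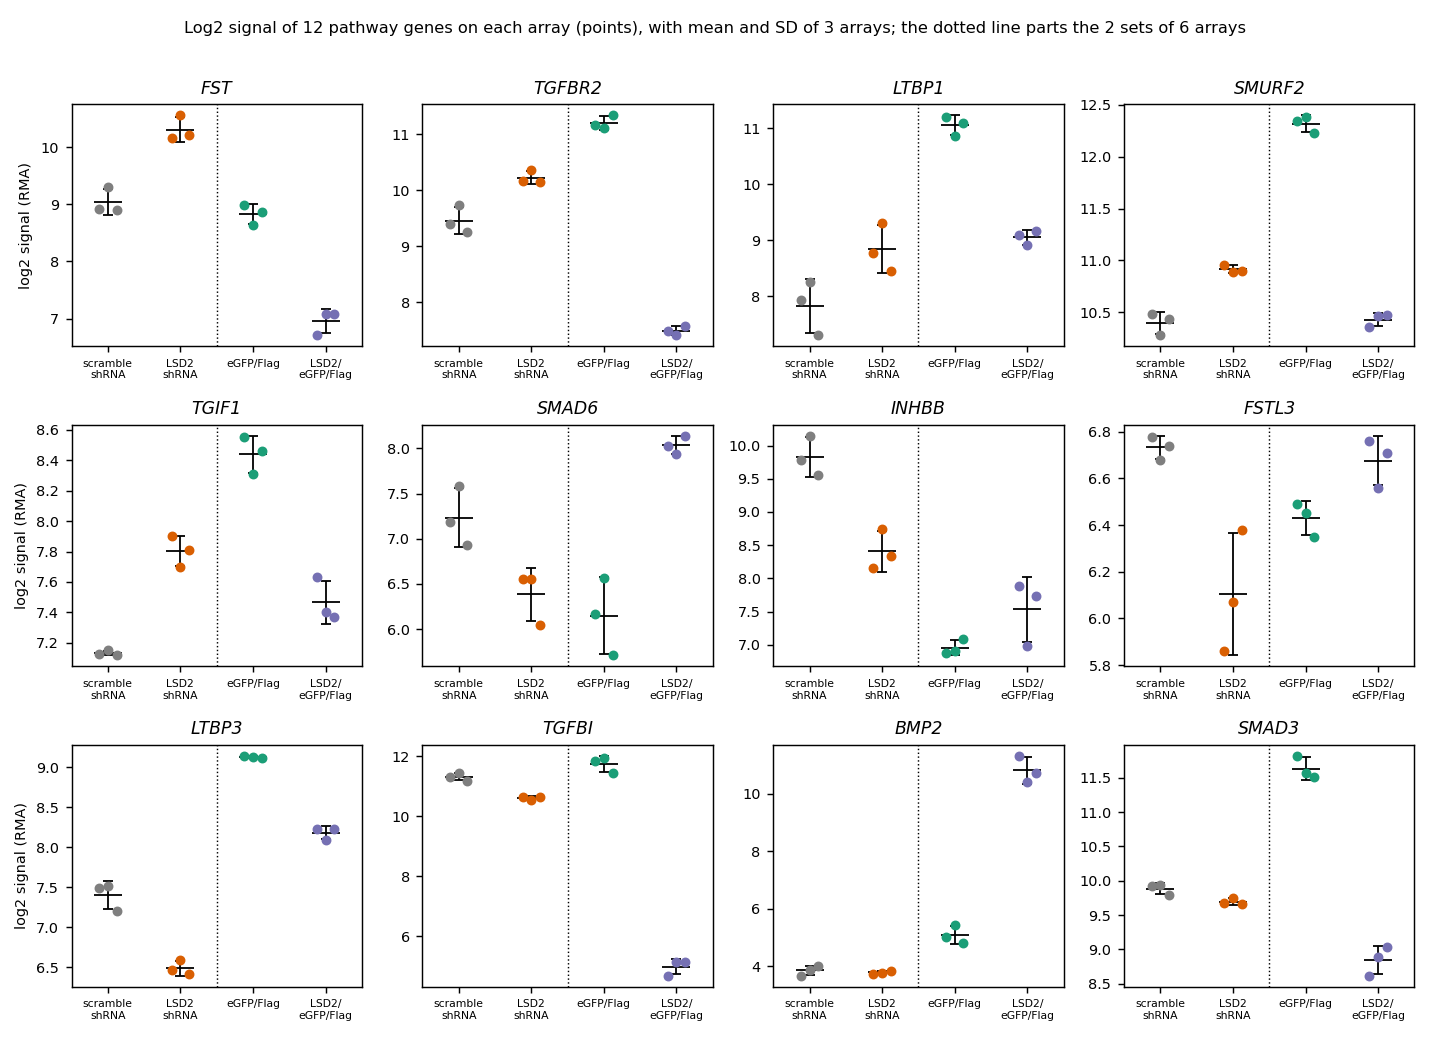
Log2 signal on each of the 12 arrays (points) for 12 listed genes, with the mean and SD of the 3 arrays of a group (bars). Scramble and LSD2 shRNA arrays stand left of the dotted line and eGFP/Flag and LSD2/eGFP/Flag arrays right of it, and levels are not comparable across that line. In FST, TGFBR2, LTBP1, SMURF2 and TGIF1 the LSD2 shRNA arrays lie above the scramble arrays and the LSD2/eGFP/Flag arrays below the eGFP/Flag arrays.

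Other genes of the pathway were changed about as often as genes at large, with 6 higher and 5 lower of 96 measured (11.5%, against 10.5% of all genes). LEMD3 (0.44 ± 0.08), an inner nuclear membrane protein that binds SMADs, the ubiquitin ligase WWP1 (0.36 ± 0.09) and the kinase MAP3K7, known as TAK1 (0.31 ± 0.07), rose among 26 intracellular regulators, and 0 fell (limma; 0 also at an unadjusted p under 0.05). FSTL1, a secreted follistatin relative, fell by 0.32 among 17 extracellular antagonists, carriers and activators. Among 17 further ligands 0 were called (limma; 0 also at an unadjusted p under 0.05), and among 6 further receptors 0 were called (1 higher and 0 lower at an unadjusted p under 0.05). Of 23 TGF-beta response genes 2 rose and 3 fell. Fibronectin FN1 fell by 1.03 and the cytokine gene IL11 fell by 1.00, whereas the early response gene KLF10 rose by 0.65 ± 0.16. CCN2, a widely used TGF-beta response gene, was at -0.10 ± 0.13. Of 7 BMP response genes the homeobox gene DLX2 fell by 0.59 and HEY1 rose by 0.24 ± 0.06.

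In the vector comparison 14 listed genes were higher and 21 lower on the LSD2/eGFP/Flag arrays, 35 of 40 (87.5%), 18 by at least 1 log2 unit. Over all genes 30.9% were called higher and 26.1% lower, 57.0% in all, and 18.3% differed by at least 1 unit, against 45.0% of the listed genes. Arrays did not overlap for 13 listed genes that were higher and 22 that were lower, where 32.7% and 28.4% of all genes were so placed. The BMP ligand gene BMP2 rose most and TGFBI fell most. The shift to equal array medians moved the median of all genes from 0.01 to -0.12 and the share of higher calls over all genes from 54.2% to 40.5%, and over the listed genes it gave 11 higher and 22 lower. Every listed change of at least 1 log2 unit kept its call under that shift, and the calls it ended were those of BMP7, INHBB and SKI.

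All 9 ligand genes were called. BMP2 read 5.03, 5.43 and 4.79 on the eGFP/Flag arrays and 11.32, 10.40 and 10.73 on the LSD2/eGFP/Flag arrays. It went from a dim signal to a bright one, a rise of 5.73 ± 0.20 (limma adjusted p = 2.46e-11), and its second probe set rose by 4.45 ± 0.21. The eGFP/Flag mean of 5.08 lay below the mean of the blood cell markers on those arrays (5.57 to 5.73), so the rise is one of signals and no fold of the RNA is given. BMP6 rose by 1.97 ± 0.14 by its brightest probe set, from 5.67, 5.61 and 6.11 to 7.96, 7.50 and 7.85, but a dimmer probe set was lower, at -0.47 ± 0.12, so the direction of BMP6 depends on the probe set. BMP7 was the reverse case, with a rise of only 0.29 ± 0.09 by the brightest of 4 probe sets and of 0.65, 3.04 and 3.35 by the others. TGFB2 read 7.63, 7.49 and 6.62 on the eGFP/Flag arrays and 3.46, 3.56 and 3.47 on the others. It fell by 3.75 to near the lowest signals (limma adjusted p = 2.2e-09), and its other 3 probe sets were at -1.51, -0.33 and -0.24, the last not called. TGFB1 fell by 1.18, from 8.38, 8.48 and 8.73 to 7.37, 7.23 and 7.47, although its dimmer probe set (-0.26 ± 0.11) was not called. TGFB3 rose by 0.41 ± 0.08 and INHBA fell by 0.94, while a dimmer probe set of INHBA (-0.15 ± 0.07) was not called. INHBB (0.58 ± 0.22, limma adjusted p = 0.0371) was called with overlapping arrays, 6.88, 6.90 and 7.09 against 7.89, 6.98 and 7.74. Leaving out eGFP/Flag replicate 1 (0.0964), eGFP/Flag replicate 2 (0.0866), or replicate 1 (0.168) or 3 (0.129) of the LSD2 vector ended the call. So did the replicate block (limma adjusted p = 0.0626), cyclic loess (0.0851) and joint quantile normalization (0.0876). BMP4 fell by 0.39 (limma adjusted p = 0.012) and was not called without replicate 1 of the eGFP/Flag arrays (0.0507) or replicate 2 of the LSD2/eGFP/Flag arrays (0.0571).

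Among the receptors, TGFBR2 read 11.17, 11.11 and 11.34 on the eGFP/Flag arrays and 7.48, 7.42 and 7.58 on the LSD2/eGFP/Flag arrays. It fell by 3.71 (SE 0.11, limma adjusted p = 5.76e-12), and its dimmer probe set fell by 0.75. ENG fell by 2.04, from 8.60, 8.29 and 8.66 to 6.54, 6.25 and 6.64, while its second probe set (-0.14 ± 0.10) was not called. TGFBR3, the co-receptor betaglycan, went the other way, from 8.78, 8.64 and 9.05 to 10.43, 10.26 and 10.40. It rose by 1.54 ± 0.11 (limma adjusted p = 4.95e-08). ACVR1 fell by 0.86 and BMPR2 fell by 0.43. The activin type I receptor gene ACVR1B rose by 1.16 ± 0.11 by its brightest probe set, but 1 of its 5 others was called lower (-0.19 ± 0.08), 4 were not called, and the mean of all 6 was 0.12 ± 0.06 (limma adjusted p = 0.115). TGFBR1 (-0.16 ± 0.10) and BAMBI (0.23 ± 0.14) were not called.

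FST read 8.99, 8.64 and 8.86 against 6.71, 7.08 and 7.08, and fell by 1.87 (SE 0.15, limma adjusted p = 9.79e-08), with its second probe set down by 1.14. FSTL3 was at 0.25 ± 0.11 and was not called (limma adjusted p = 0.0733). GREM1 stayed dim, at 3.52 to 3.77 and 3.53 to 3.69. All 3 latent TGF-beta binding protein genes fell, of which LTBP1 fell by 1.99 (from 11.20, 10.85 and 11.09 to 9.09, 8.91 and 9.17), LTBP3 fell by 0.95 and LTBP2 fell by 0.79. The limma adjusted p of these 3 was 4.15e-06, 6.95e-07 and 4.92e-07.

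The SMAD genes divided. SMAD3, which carries TGF-beta and activin signals, read 11.82, 11.57 and 11.51 on the eGFP/Flag arrays and 8.62, 8.89 and 9.03 on the LSD2/eGFP/Flag arrays. It fell by 2.78 (SE 0.11, limma adjusted p = 5.92e-11), and all 3 of its other probe sets were called lower, at -2.42, -1.19 and -0.79. SMAD5 fell by 1.76 and its other probe set fell by 2.45. SMAD1, which like SMAD5 carries BMP signals, rose by 0.77 ± 0.10 by its brightest probe set. The dimmer probe set of SMAD1 (0.13 ± 0.08) was not called. Both inhibitory SMADs were higher. SMAD6 read 6.17, 6.56 and 5.71 against 8.03, 7.94 and 8.14 and rose by 1.89 ± 0.21 (limma adjusted p = 2.8e-06), with its other 3 probe sets up by 0.36, 0.40 and 0.49. SMAD7 rose by 1.40 ± 0.26, from 7.50, 8.33 and 6.90 to 8.99, 9.24 and 8.69 (limma adjusted p = 0.000372). SMAD2 fell by 0.38 by its brightest probe set, and its other 2, at 0.09 and 0.02, were not called. SMAD4, the shared partner, had a dimmer probe set at -0.18 ± 0.10 that was not called. By its brightest probe set SMAD4 fell by 0.34, and this call stood at a limma adjusted p of 0.0466. It was not called when any 1 of the 6 shRNA arrays (0.0523 to 0.0609), replicate 1 of the eGFP/Flag arrays (0.208) or replicate 1 of the LSD2 vector arrays (0.24) was left out, the last 2 of which moved the difference to -0.22 and -0.17, nor in the fit on the 6 vector arrays (0.113).

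SMURF2 read 12.35, 12.38 and 12.23 against 10.36, 10.46 and 10.47 and fell by 1.89 (SE 0.07, limma adjusted p = 7.36e-11). TGIF1 fell by 0.98, from 8.55, 8.31 and 8.46 to 7.63, 7.40 and 7.37, and PMEPA1 fell by 0.80. SKI was called at 0.36 ± 0.14 with overlapping arrays (limma adjusted p = 0.0376). Its second probe set, at 0.23 ± 0.13, was not called. The SKI call ended in 11 of 22 settings, among them cyclic loess (limma adjusted p = 0.16), joint quantile normalization (0.196) and array weights (0.105). It also ended without control replicate 2 (0.106) or 3 (0.161), and without replicate 2 (0.154) or 3 (0.0991) of the LSD2 vector. SKIL was at 0.21 ± 0.14.

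The response genes gave the widest range. TGFBI read 11.84, 11.95 and 11.45 on the eGFP/Flag arrays and 4.70, 5.14 and 5.16 on the LSD2/eGFP/Flag arrays. It fell by 6.75 (SE 0.14, limma adjusted p = 1.29e-13), to a mean of 5.00 that lay below the mean of the blood cell markers on the same arrays (5.59 to 5.63), so no fold of the RNA is given. The ID genes did not move together. ID1 fell by 2.33, from 10.53, 10.99 and 10.15 to 8.31, 8.21 and 8.14, whereas ID2 rose by 3.79 ± 0.26, from 6.67, 7.57 and 6.39 to 10.88, 10.40 and 10.72. ID2 rose by 4.06 with its second probe set. ID3 rose by 0.94 ± 0.14 and ID4 by 0.63 ± 0.16, the latter with 2 other probe sets at 0.70 and 1.04. All 5 response genes had arrays that did not overlap between the groups, where 32.7% of all genes were so placed higher and 28.4% lower.

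Among 96 other pathway genes 26 were higher and 30 lower (58.3%, against 57.0% of all genes). The BMP response genes had 6 of 7 members higher and 0 lower (limma; 0 lower also at an unadjusted p under 0.05), with a median of 5.20 log2 units against 0.01 over all genes. The homeobox genes DLX2 (6.39 ± 0.09), MSX1 (5.58 ± 0.15) and MSX2 (5.46 ± 0.14) led them, and RUNX2 was not called. GATA3, on this list and on the luminal marker list, was among the rises at 2.00 ± 0.11. The 23 TGF-beta response genes had 7 higher and 9 lower, with a median of -0.15. The falls were the larger, led by CCN2 (fell by 7.36), the cytokine gene LIF (fell by 4.44) and IL11 (fell by 4.09), while MYC rose by 1.91 ± 0.21. Of 17 extracellular antagonists, carriers and activators 4 rose and 6 fell. Thrombospondin THBS1, an activator of latent TGF-beta, fell by 6.97, fibrillin FBN2 rose by 5.80 ± 0.19 and the BMP antagonist CHRDL1 fell by 3.48. Of 26 intracellular regulators 5 rose and 13 fell, with TGFB1I1 (fell by 5.13), the adaptor DAB2 (fell by 1.88) and the ubiquitin ligase RNF111 (fell by 1.06) farthest down. Of 17 further ligands 2 rose and 1 fell, GDF15 by 0.79, with GDF11 (0.59 ± 0.07) and BMP5 (0.30 ± 0.08) up. Of 6 further receptors ACVR2B (0.86 ± 0.10) and ACVR2A (0.43 ± 0.09) rose and NEO1 fell by 0.34. Many genes on the response lists answer to other signals too, and signalling itself was not measured.

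**Figure D3:**
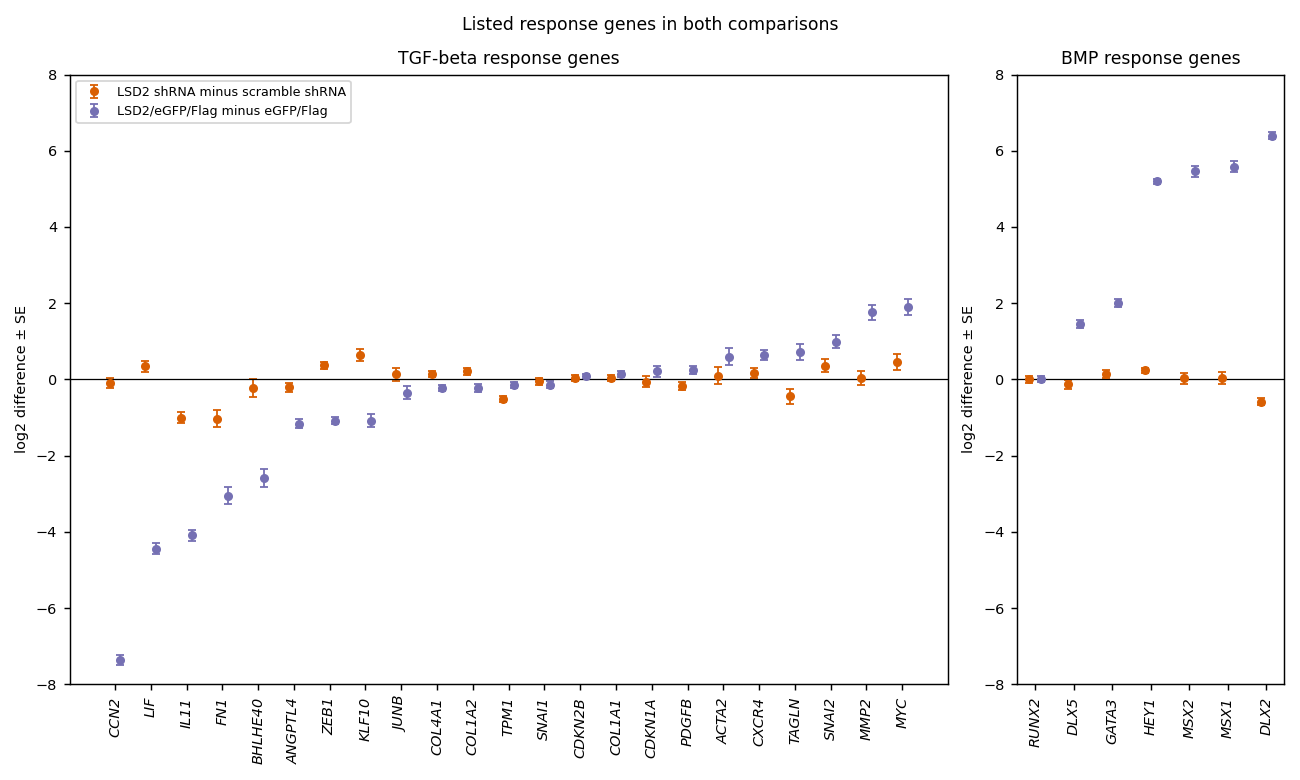
Log2 differences (points) with the standard error of the fit (bars) of 23 listed TGF-beta response genes (left) and 7 listed BMP response genes (right), each ordered by the vector comparison. Purple points are LSD2/eGFP/Flag minus eGFP/Flag and orange points LSD2 shRNA minus scramble. The purple points run from -7.36 for CCN2 to 1.91 for MYC on the left and reach 6.39 for DLX2 on the right, and the orange points lie within about 1 unit of 0.

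The 2 comparisons share no arrays, but both took the error of each gene from 1 fit of all arrays, so their calls are not independent. Of the 15 listed genes called with the shRNA, 14 were also called in the vector comparison (93.3%, against 76.2% of all genes called with the shRNA). Of these 14, 7 went opposite ways (50.0%, against 61.9% over all genes called in both). FST, TGFBR2, LTBP1, SMURF2 and TGIF1 rose with the LSD2 shRNA and fell on the LSD2/eGFP/Flag arrays, 5 of the 6 genes that had risen (83.3%), where 54.2% of all genes that had risen did so. INHBB and SMAD6 went the other way, 2 of the 9 genes that had fallen (22.2%), where 40.8% did so over all genes. The vector call of INHBB was lost in 9 of 22 settings and the shRNA call of SMAD6 in 5. The shRNA call of LTBP1 was lost in 2 settings. The difference between the effects was called for 28 of the 40 genes, 12 higher and 16 lower, where 28.0% of all genes were called higher and 22.4% lower, 50.4% in all. For each of the 7 the difference was called, with limma adjusted p from 6.96e-11 for TGFBR2 to 0.000108 for INHBB. This follows largely from their selection by opposite calls in the same fit and adds no separate support. ID4 rose in both. ACVR1, BMPR2, ENG, LTBP3, PMEPA1 and TGFBI fell in both, 6 of the 9 that had fallen. Over all genes 234 of the 662 that had fallen did so. Among the listed genes that fell in both, the fall was larger on the LSD2/eGFP/Flag arrays for TGFBI, ENG, ACVR1 and PMEPA1. The limma adjusted p of the difference ran from 2.64e-11 for TGFBI to 0.00411 for PMEPA1. For LTBP3, BMPR2 and ID4 it was not called (0.864, 0.824 and 0.67), and LTBP3 was at -0.91 ± 0.09 and -0.95 ± 0.09. FSTL3 was called with the shRNA alone, and its effects differed (limma adjusted p = 0.000339). TGFBR1, BAMBI, GREM1 and SKIL were called in neither comparison.

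**Figure D4:**
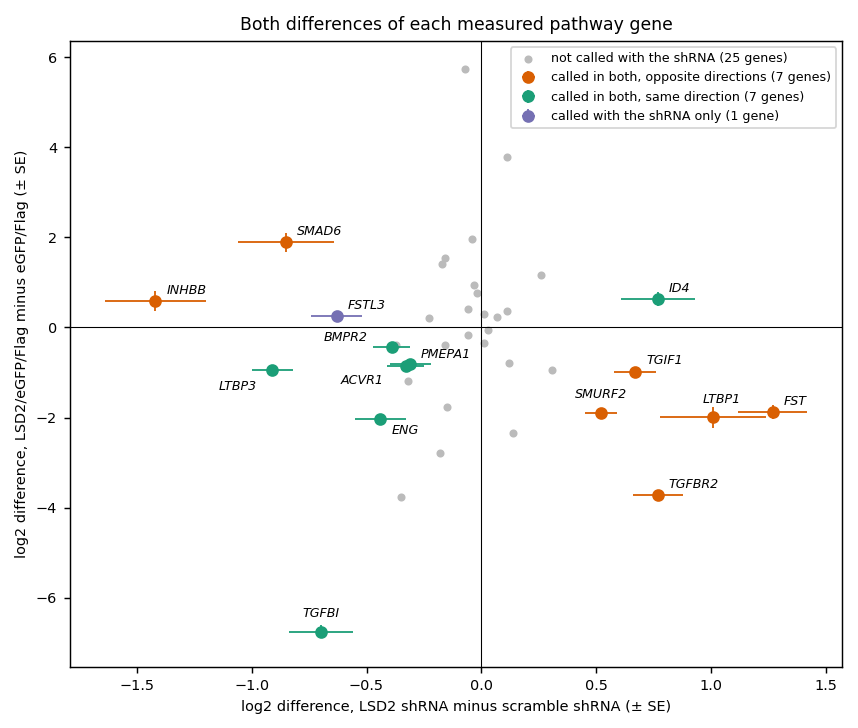
Log2 difference with the LSD2 shRNA (horizontal) against log2 difference on the LSD2/eGFP/Flag arrays (vertical) for the 40 measured genes, with standard errors for the 15 called with the shRNA. Orange marks the 7 genes called in opposite directions, green the 7 called in the same direction, purple FSTL3 and grey the 25 not called with the shRNA.

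Of the 40 genes, 23 had several probe sets (78 probe sets in all for the 40), tested among all single-gene probe sets. In the shRNA comparison all probe sets of a gene shared a verdict for 15 of the 23, and only some were called for 8. In the vector comparison these numbers were 13 and 8, and 2 genes, BMP6 and ACVR1B, had probe sets called in opposite directions. In the vector comparison all probe sets of TGFBR2, FST, BMPR2, LTBP1, SMAD3 and SMAD5 were called lower. All probe sets of BMP2, BMP7, ID2, ID4 and SMAD6 were called higher there. The probe sets of a gene lay over 1 log2 unit apart for 9 of the 23, most of all for TGFB2 (-3.75 to -0.24), BMP7 (0.29 to 3.35) and TGFBR2 (-3.71 to -0.75).

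**Figure D5:**
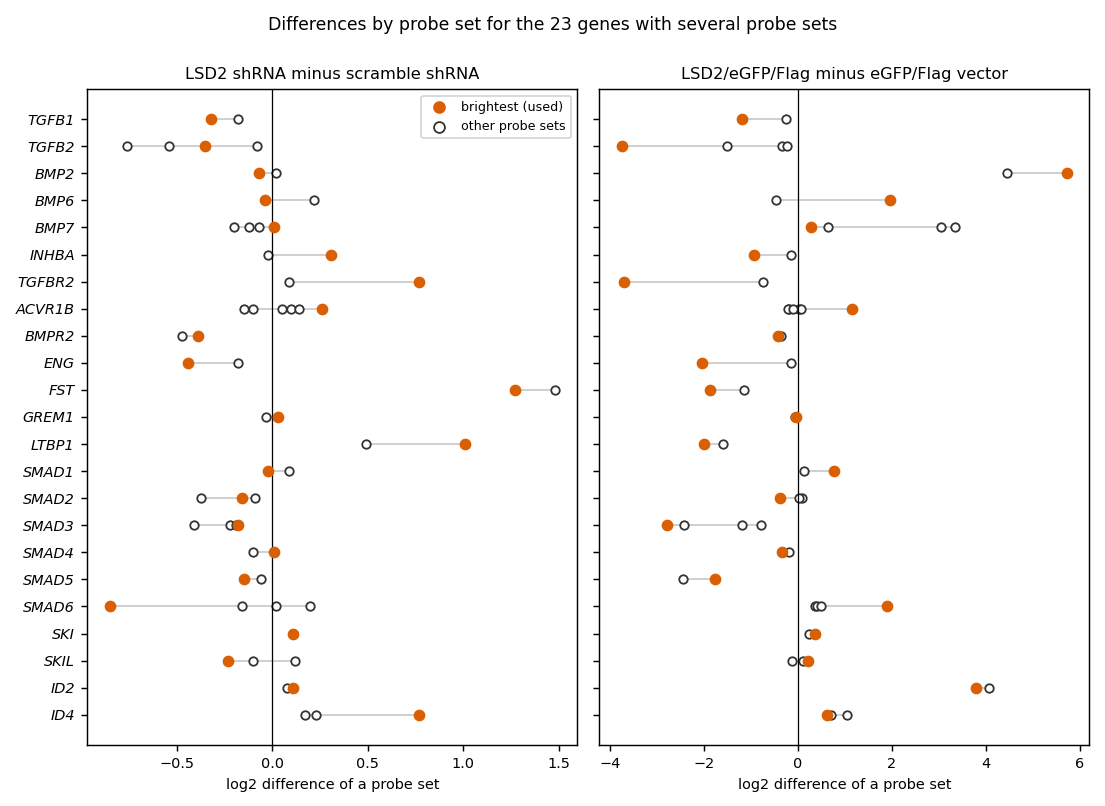
Log2 difference of every single-gene probe set (points) of the 23 genes with several, for LSD2 shRNA minus scramble (left) and LSD2/eGFP/Flag minus eGFP/Flag (right). Filled orange points are the brightest probe sets, on which the report rests, and open points the others. BMP6, ACVR1B, SMAD2 and SKIL have points on both sides of 0 on the right, and several genes, SMAD6 among them, on the left.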

How the data were processed

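Biotin-labelled cRNA from total RNA was hybridised to 12 Affymetrix arrays, 3 in each of 4 groups taken from the sample titles. The deposited table holds log2 values of 22277 probe sets, which the authors made with RMA (per the submitters' processing notes). The sources used here do not give the software or its version. Gene names came from the platform annotation, updated through RefSeq gene identifiers (19052 of 19064 single-gene probe sets matched), and the brightest over the 12 arrays was kept for each of 11963 genes.

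All arrays entered 1 fit of group means (limma 3.58.1, R 4.3.3, lmFit with eBayes; residual degrees of freedom 8, prior 4.82), with two-sided tests, Benjamini-Hochberg adjusted over all genes and called at 0.05. The procedure was run on simulated data with independent normal errors and few changed genes. That setting differs from the vector comparison, where most genes were called, so it checks the procedure and not these calls. Values after ± are standard errors unless given as SD. The 41 genes, the other pathway lists and the markers were chosen with earlier results of these data known. Every listed gene is accounted for, and of the other pathway genes up to 3 called ones per list and comparison with the largest differences were named; CCN2 with the shRNA, and RUNX2, GATA3 and MYC, were added after their values were seen. The alternatives were a replicate block, the compared groups alone, cyclic loess, equal medians, joint quantile normalization, an intensity trend, the mean over a gene's probe sets, leaving out the dimmest 30% of genes, weights per array, a threshold of 0.01 and leaving out each array. Promoter sequences are RefSeq's (GRCh38.p14).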

Additional observations from a re-analysis of the deposited data

Results flagged for a closer look

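For 28 of the 40 measured genes the effect in the vector comparison differed from the effect of the LSD2 shRNA (limma test of the difference, adjusted p from 2.64e-11 to 0.00411), where 50.4% of all genes did. By their labels the comparisons alter LSD2 in opposite directions, though LSD2 itself was not measured. On the LSD2/eGFP/Flag arrays 9 of 10 markers of MDA-MB-231 cells were lower, and the part of this in the differences was not tested. Values are the vector effect minus the shRNA effect in log2 units.

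Among ligands the differences were 5.80 for BMP2, 2.01 for BMP6, 2.00 for INHBB and 0.48 for TGFB3, and -3.39 for TGFB2, -1.25 for INHBA and -0.86 for TGFB1. Receptor genes gave 1.70 for TGFBR3 and 0.90 for ACVR1B, and -4.48 for TGFBR2, -1.60 for ENG and -0.54 for ACVR1. With the mean of all probe sets in place of the brightest one, the difference for ACVR1B was no longer called (0.07, limma adjusted p = 0.54), and that for BMP7 was called (1.93, limma adjusted p = 1.39e-09, against 0.28 and 0.0725 by the brightest). Extracellular proteins gave 0.88 for FSTL3, -3.14 for FST, -3.01 for LTBP1 and -0.91 for LTBP2. SMAD genes gave 2.74 for SMAD6, 1.57 for SMAD7, 0.79 for SMAD1, -2.60 for SMAD3 and -1.61 for SMAD5. Regulators gave -2.41 for SMURF2, -1.64 for TGIF1 and -0.49 for PMEPA1. Response genes gave 3.68 for ID2, 0.97 for ID3, -2.47 for ID1 and -6.04 for TGFBI.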

How the results depend on the processing

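Of the 15 listed genes called with the LSD2 shRNA, 8 kept their call in all settings and 7 lost it in at least 1 of 22. Of the 35 called in the vector comparison 28 kept it in all, and no called value changed sign in any setting. With the shRNA, the 9 listed falls became 5 at an adjusted p under 0.01, and 4 to 10 when 1 array was left out. All genes called higher with the shRNA numbered 598, and 1128 with array weights, 280 at an adjusted p under 0.01 and 364 to 635 when 1 array was left out. Those called lower numbered 662, and 1222, 284 and 388 to 715. With equal medians the shRNA calls over all genes were 703 higher and 526 lower, a share of 57.2% higher against 47.5%. Whether the replicate numbers pair the samples was not settled, and the main fit did not pair them. Deviations of same-numbered arrays from their group means correlated at 0.02, 0.51 and 0.45 for the shRNA arrays and -0.14, 0.17 and 0.18 for the vector arrays. Between replicates 2 and 3 of the paired groups the correlations were -0.48 and -0.46 for the shRNA arrays and -0.24 and -0.23 for the vector arrays. With the replicate block, 6 listed genes were called higher and 8 lower with the shRNA, and 12 and 20 in the vector comparison, with 510 and 561, and 3635 and 3056, over all genes. The number of arrays limits the precision, RMA values carry no detection calls, and BMP2, GREM1 and SKIL lay in the dimmest 30% of genes.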

Other observations

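Among the eGFP/Flag replicates, 7 listed genes shared an order. They were picked after their values were seen, so that they share it is a description of the choice and was not tested. On replicates 1, 2 and 3, ID1 read 10.53, 10.99 and 10.15, ID2 read 6.67, 7.57 and 6.39, ID3 read 9.70, 10.12 and 9.48, and ID4 read 10.97, 11.43 and 10.60. SMAD6 read 6.17, 6.56 and 5.71, SMAD7 read 7.50, 8.33 and 6.90, and BAMBI read 8.69, 8.97 and 8.47. Their ranges were 0.50 to 1.43 log2 units. In the other groups the most common order was shared by 5 of the 7 on the LSD2 shRNA arrays (ranges 0.25 to 0.81), 4 on the scramble arrays (0.06 to 0.29) and 3 on the LSD2/eGFP/Flag arrays (0.08 to 0.30). Over all genes, 16.7% had the eGFP/Flag order of the 7, and 10.4%, 22.9% and 13.1% had the orders of the other groups in this sequence. That fewer of the 7 shared an order in the other groups may follow from the choice of genes. Replicates of a group have no order, and what differed between these arrays was not tested.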
